A study of Homo sapiens with 9 samples.

Results

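The Notch genes described here are 10 of the 58735 genes counted in MIA PaCa-2 cells, namely the receptors NOTCH1, NOTCH2 and NOTCH3, the ligands JAG1, JAG2 and DLL1, the DNA-binding factor RBPJ and the target genes HES1, HES4 and HEY1. They were picked by gene name and were selected on NOTCH1, whose RNA stood above the DMSO level with an ERK inhibitor and below it with a TBK1/IKKε inhibitor, so the values of NOTCH1 in these comparisons are a description and carry no test. The question was whether the other receptors, the ligands and the targets followed NOTCH1.

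Notch receptors are membrane proteins that are switched on by Jagged or Delta-like ligands on a neighboring cell. Ligand binding lets ADAM proteases and then γ-secretase cut the receptor, and the freed intracellular part enters the nucleus, joins RBPJ and Mastermind coactivators on DNA and turns on genes such as those of the HES and HEY repressors. In the pancreas the pathway holds progenitor cells back from early differentiation, and it is active again in pancreatic tumors.

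The MIA PaCa-2 line was established from a human pancreatic cancer. Cells received 1 µM SCH772984, which inhibits ERK1 and ERK2, 1 µM compound 1, which inhibits TBK1 and IKKε, or 0.1% DMSO as vehicle, and each 24-h treatment gave 3 RNA libraries. The labels do not say whether the libraries of a condition came from separate cultures, so p-values measure the spread between these libraries, which may be technical. The totals ran from 9464432 to 13887859 counts per library. The MAPK output genes, which ERK signaling switches on, checked the ERK inhibitor. Of the 12 listed, the 7 that passed the filter on low counts through both conditions all fell with SCH772984, where 38.2% of all such genes were lower. None of the 11 tested with compound 1 was called. Over all genes only 0.49% were higher and 0.374% lower there, so this count tells little about MAPK output. At an unadjusted p under 0.05 in edgeR, 1 was higher and 2 were lower (7.35% and 7.69% of all genes). Among 7 epithelial markers, EPCAM had 0 counts in all 9 libraries and KRT7 and CDH1 had at most 5, while KRT8, KRT18 and KRT19 were abundant, and the summed level was 3475 to 3739 CPM with DMSO, 2978 to 3748 CPM with compound 1 and 1159 to 1320 CPM with SCH772984. Of the 4 epithelial markers tested with SCH772984, 1 was higher, 2 were lower and 1 was not called. By the same rule 33.8% of all genes were higher and 38.2% lower. The mesenchymal marker VIM was abundant in all libraries, at 1933 to 2882 CPM, and was called lower with SCH772984 (log2 -0.23). Of 10 markers of immune, endothelial, stromal, islet and acinar cells, 4 (PTPRC, CD3E, INS and PRSS1) had 0 counts throughout, and the sum over the list, nearly all of it COL1A2, ran from 462 to 510 CPM for DMSO, from 476 to 539 CPM for compound 1 and from 994 to 1123 CPM for SCH772984. COL1A2 rose with SCH772984 (log2 1.10), and the part of either marker list in the Notch results was not tested. Compound 1 replicate 1 stood apart from the other compound 1 libraries, since its counts differed from theirs by 7.61 and 10.1 times the sampling noise (chi-square per degree of freedom) against 2.66 between the other two.

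Target genes of Notch carry binding sites for RBPJ, whose preferred sequence is GTGGGAA. The promoters of HES1 and HES4 are shown because both hold this motif at nearly the same distance from the RefSeq start of the gene while the RNAs of these genes moved in opposite directions with the ERK inhibitor. The sequences are from RefSeq on GRCh38.p14 and run from 250 to 67 bases before the RefSeq start, 5′ to 3′ on the strand of the gene, with the motif in capitals. HES1 lies on the plus strand at chr3:194135898-194136081 and HES4 on the minus strand at chr1:1000164-1000347.
HES1: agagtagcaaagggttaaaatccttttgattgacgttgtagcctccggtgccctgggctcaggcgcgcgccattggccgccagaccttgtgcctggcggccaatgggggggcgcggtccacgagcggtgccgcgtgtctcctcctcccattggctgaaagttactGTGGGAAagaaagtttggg
HES4: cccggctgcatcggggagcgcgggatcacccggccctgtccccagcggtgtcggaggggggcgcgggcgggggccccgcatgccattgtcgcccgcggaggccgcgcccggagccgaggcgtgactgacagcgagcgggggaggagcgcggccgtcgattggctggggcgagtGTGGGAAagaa

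The motif starts 85 bases before the start of HES1 and 77 bases before that of HES4, in the same orientation, and the longest run of bases that the 250 bases before each start share is tGTGGGAAagaa, which is 12 bases long. The start of HES4 in the deposited coordinates lies 75 bases before the RefSeq start, and that of HES1 lies 3 bases before it. The similar distance of the motif therefore holds for the RefSeq starts only. GTGGGAA, on either strand and within 250 bases before the start, was present in 5.43% of 35116 human promoters in the table. Of the members, 8 genes had an entry, with 12 promoters in all, and the motif was in 1 promoter each of HES1, HES4 and RBPJ. Within the HES/HEY list 5 of 10 genes with an entry held it (HES1, HES4, HES5, HEY2 and HEYL), and HES2, HES6 and HES7 did not. Over all the Notch pathway lists the motif was in 7 of 107 promoters (6.54%), which is close to the share of all promoters. A match of letters is a description of the sequence and was not measured as a bound site.

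HEY1 passed the filter on low counts only through the SCH772984 libraries, where it is high, so it had to differ and is given below by its counts, without a test. With SCH772984 the other 8 members besides NOTCH1 passed the test, 5 of them higher (NOTCH2, NOTCH3, JAG2, DLL1 and HES4) and 3 lower (JAG1, RBPJ and HES1), although 3 were higher and 4 lower, NOTCH2 among the latter, when the dependence of each library on GC content and gene length was removed (hereafter the length and GC trends). Over all 13834 genes tested, 37.2% were higher and 35.5% were lower at the same threshold, a Benjamini-Hochberg adjusted p under 0.05 in the quasi-likelihood test of edgeR. Without the 1309 genes that passed the filter only through one condition, these shares were 33.8% and 38.2%. A gene of any kind was therefore called in most cases, and the sizes of the changes tell more about the members than their number. The median log2 fold change was 0.39 for the 8 members and -0.04 for the 12525 genes left. With the length and GC trends removed these medians were 0.12 and -0.17. In such bulk RNA, a loss of cells with a transcript and a loss of transcript per cell cannot be told apart.

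**Figure D1:**
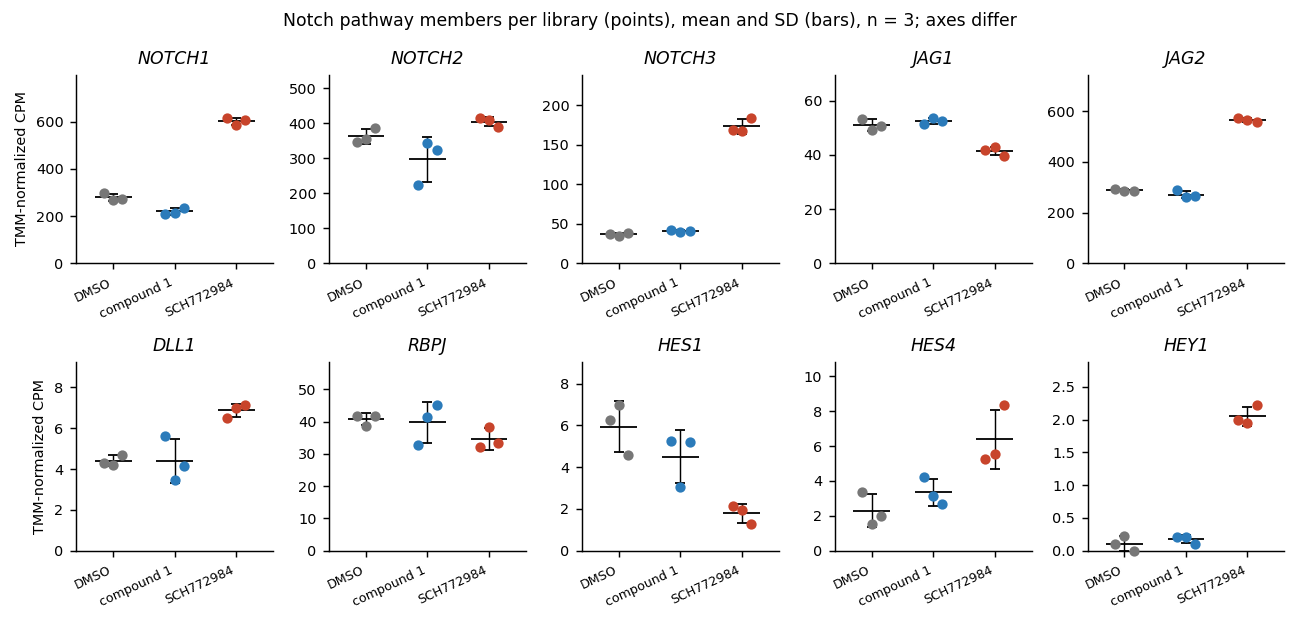
Level of each of the 10 members in TMM-normalized CPM (vertical axis, starting at 0 and scaled per gene) in each library of DMSO, compound 1 and SCH772984 (points), with the mean and SD of 3 libraries (bars). NOTCH3, JAG2 and HEY1 sit well above both other conditions with SCH772984, and HES1 sits below them.

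NOTCH1 encodes the receptor on which the set was selected. Its level was 298, 267 and 273 CPM (read counts per 1000000 reads of the TMM-normalized library size) with DMSO, 208, 214 and 236 CPM with compound 1, and 614, 584 and 605 CPM with SCH772984. The 3 conditions did not overlap, and the means were 279 ± 15.9, 220 ± 14.7 and 601 ± 15.6 CPM (SD, n = 3). The log2 difference from DMSO was 1.10 (SE 0.061) with SCH772984 and -0.34 (SE 0.072) with compound 1. Among the genes tested, ordered from the highest fold change, NOTCH1 was number 2276 of 13834 with SCH772984. Ordered from the lowest, it was number 574 of 12849 with compound 1. The transcript is rich in G and C (63.7%, above 94.0% of the genes tested), and with the length and GC trends removed its difference with SCH772984 was 0.56 and with compound 1 was -0.25.

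NOTCH3, a receptor gene that Notch signaling itself can turn on, had the largest change among the receptors. It stood at 37.3, 35.0 and 38.7 CPM with DMSO, at 41.8, 39.2 and 40.7 CPM with compound 1, and at 168, 168 and 184 CPM with SCH772984. The SCH772984 libraries lay far above both other conditions, whose ranges were narrow and close to each other. The rise over DMSO was 4.66-fold (log2 2.22, SE 0.076, adjusted p = 2.43e-28), and with the length and GC trends removed it was 1.71 on the log2 scale.

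NOTCH2, the receptor with the longest gene model of the members, changed little. The libraries held 346, 356 and 386 CPM with DMSO, 223, 344 and 325 CPM with compound 1, and 415, 409 and 390 CPM with SCH772984. Compound 1 replicate 1 was the lowest of the 9, and the SCH772984 libraries lay just above those with DMSO. The log2 fold change with SCH772984 was 0.15 (SE 0.060, adjusted p = 0.0225), and this call did not hold when DMSO replicate 1 or 2 or SCH772984 replicate 1 or 2 was left out (0.10 to 0.14, adjusted p from 0.0657 to 0.227). It was also lost without the filter on low counts (0.12, adjusted p = 0.147) and with all 9 libraries in one fit (0.16, adjusted p = 0.223). The value turned to -0.17 with the length and GC trends removed (adjusted p = 5.28e-03). The median of the 12525 genes that passed the filter through both conditions was also -0.17 there, so no direction is given for NOTCH2 with the ERK inhibitor. NOTCH2NLA, a human copy of part of NOTCH2, had 3 to 12 counts per library.

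NOTCH4 was scarce, at 2.53 ± 0.60 CPM with DMSO, 3.37 ± 0.36 CPM with compound 1 and 2.68 ± 1.23 CPM with SCH772984 (SD, n = 3). Its log2 difference between SCH772984 and DMSO was 0.10, with a 95% interval from -0.53 to 0.73.

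To set the receptors side by side, CPM were divided by the length of each gene in kilobases. With DMSO, NOTCH1 stood at 26.9 ± 1.53 CPM per kilobase, NOTCH2 at 21.6 ± 1.24, NOTCH3 at 3.94 ± 0.20 and NOTCH4 at 0.26 ± 0.062 (SD, n = 3). NOTCH1, on which the set was selected, is part of the sum over the 4 receptors, which was 52.7 ± 1.56 CPM per kilobase with DMSO, 43.5 ± 4.72 with compound 1 and 100.7 ± 1.80 with SCH772984. The sum without NOTCH1 was 25.8 ± 1.36 CPM per kilobase with DMSO, 22.4 ± 3.77 with compound 1 and 42.8 ± 0.38 with SCH772984. NOTCH1 made up 51.1 ± 2.27% of the sum over all 4 receptors with DMSO, 48.9 ± 3.71% with compound 1 and 57.5 ± 0.50% with SCH772984. NOTCH3 went from 7.47 ± 0.19% with DMSO to 18.3 ± 0.87% with SCH772984, and NOTCH2 from 40.9 ± 2.27% to 23.9 ± 0.94%. NOTCH1 and NOTCH2 were thus the main receptor RNAs with DMSO. In CPM not divided by length, NOTCH2 held 53.2 ± 2.36% with DMSO and 34.3 ± 1.15% with SCH772984, and NOTCH3 held 5.43 ± 0.12% and 14.7 ± 0.78%.

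**Figure D2:**
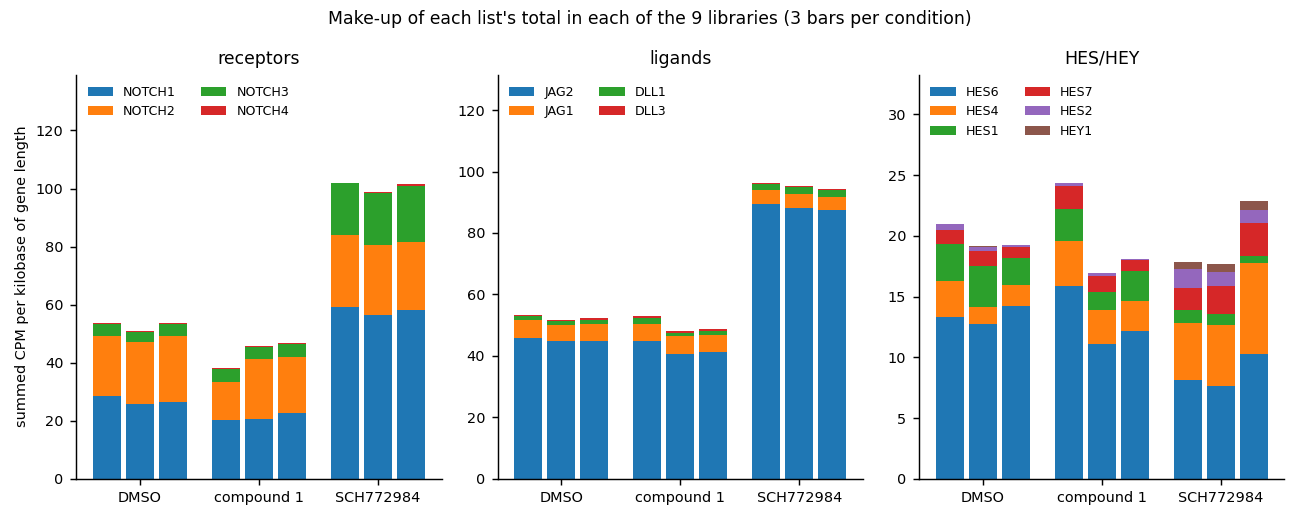
Summed level of the receptor, ligand and HES/HEY genes in CPM per kilobase of gene length (vertical axis) in each of the 9 libraries (bars, 3 per condition), split by gene (colors; genes averaging under 0.05 CPM per kilobase are left out). The receptor sum, with NOTCH1 or without it, and the ligand sum are higher in all SCH772984 libraries, whereas the HES/HEY sums overlap between conditions and differ in their make-up.

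JAG2, a Jagged ligand, was the main ligand RNA. Its libraries held 294, 286 and 287 CPM with DMSO, 288, 260 and 264 CPM with compound 1, and 573, 564 and 559 CPM with SCH772984. The SCH772984 libraries were tightly grouped above all others. JAG2 rose 1.95-fold over DMSO (log2 0.96, SE 0.059, adjusted p = 3.87e-19), and by 0.50 on the log2 scale with the length and GC trends removed. JAG2 shares 7.33% of its exon bases with AL512356.1 on the same strand, and that gene had 0 counts in all libraries.

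JAG1, the other Jagged ligand, went the other way. It stood at 53.4, 49.1 and 50.7 CPM with DMSO, at 51.6, 53.6 and 52.4 CPM with compound 1, and at 41.9, 42.8 and 39.7 CPM with SCH772984. The SCH772984 libraries lay below all 6 others. JAG1 fell by 0.31 on the log2 scale (SE 0.084, adjusted p = 1.11e-03), a call that was lost when libraries were scaled by their size alone (-0.13, adjusted p = 0.143).

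DLL1, a Delta-like ligand, was expressed at a low level of 4.31, 4.20 and 4.71 CPM with DMSO, 5.60, 3.45 and 4.16 CPM with compound 1, and 6.48, 7.01 and 7.12 CPM with SCH772984. It rose with SCH772984 (log2 0.64, SE 0.20, adjusted p = 4.52e-03), but not past the threshold with the length and GC trends removed (0.41, adjusted p = 0.0586). DLL1 overlaps FAM120B on the opposite strand without sharing exon bases. FAM120B averaged 38.4 CPM with DMSO and 48.1 CPM with SCH772984 (log2 0.32, adjusted p = 1.16e-03). The remaining ligands were near the limit of detection, since DLL3 had 8 to 24 counts and DLL4 had 0 to 6 counts per library. DLL3 was not called with SCH772984 (log2 -0.08, 95% interval from -0.93 to 0.77).

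Per kilobase, the ligand sum was 52.5 ± 0.76 CPM in the DMSO libraries, 50.0 ± 2.55 in those of compound 1 and 95.4 ± 0.97 in those of SCH772984 (SD, n = 3). JAG2 held 86.0 ± 0.37% of it with DMSO and 92.6 ± 0.20% with SCH772984, while JAG1 held 10.5 ± 0.29% and 4.68 ± 0.15%. The sum therefore followed JAG2.

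RBPJ, the factor through which all 4 receptors reach their target genes, was 41.8, 38.6 and 41.8 CPM with DMSO, 32.8, 41.3 and 45.0 CPM with compound 1, and 32.1, 38.4 and 33.4 CPM with SCH772984. The SCH772984 libraries lay below those with DMSO and overlapped the compound 1 libraries. RBPJ fell by 0.24 on the log2 scale with SCH772984 (SE 0.091, adjusted p = 0.0167). The call was lost without SCH772984 replicate 1 (-0.21, adjusted p = 0.0597) and with scaling by library size alone (-0.07, adjusted p = 0.511), and likewise with all 9 libraries in one fit and when each library had to hold 10 counts or more. Of the 8 genes of the nuclear complex that were tested (RBPJ, Mastermind proteins and acetyltransferases), 1 rose and 3 fell with SCH772984, where 33.8% of all genes were higher and 38.2% lower, with a median log2 fold change of 0.09.

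HES1, the best known direct target of Notch and a repressor of differentiation genes, did not follow NOTCH1 with the ERK inhibitor. Its level was 6.25, 6.96 and 4.60 CPM with DMSO, 5.27, 3.03 and 5.20 CPM with compound 1, and 2.16, 1.94 and 1.28 CPM with SCH772984. No SCH772984 library reached the lowest library of either other condition. HES1 fell with SCH772984 by 1.75 on the log2 scale, to 0.298 of the DMSO level (SE 0.27, adjusted p = 1.62e-07). The call held under all 16 alternatives run for this comparison, with log2 fold changes between -1.92 and -1.54. The libraries held 19 to 63 counts of HES1, so its values are less precise than those of the receptors.

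HES4, whose promoter is printed above beside that of HES1, was 3.38, 1.55 and 1.97 CPM with DMSO, 4.20, 3.13 and 2.70 CPM with compound 1, and 5.24, 5.57 and 8.32 CPM with SCH772984. The SCH772984 libraries were above all others, and the DMSO and compound 1 libraries overlapped. The rise over DMSO was 2.76-fold (log2 1.46, SE 0.26, adjusted p = 4.34e-06). HES4 had the highest GC content of the members, at 74.2%, and its change was 0.79 on the log2 scale with the length and GC trends removed (adjusted p = 3.69e-03). ISG15, named for its position, starts 966 bases away on the opposite strand and rose by a log2 fold change of 0.75 with SCH772984 (adjusted p = 1.03e-03).

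HEY1, a repressor of the related HEY family, was almost undetected without the ERK inhibitor. It had 1, 2 and 0 counts with DMSO, 2, 2 and 1 counts with compound 1, and 24, 23 and 33 counts with SCH772984, or 2.00, 1.94 and 2.22 CPM in the SCH772984 libraries. The ratio of SCH772984 to DMSO, from 80 against 3 counts, was 19.2 with a 95% counting interval from 6.34 to 95.2. Against compound 1 the ratio was 11.8 (95% counting interval from 4.83 to 37.2, 80 against 5 counts). Without DMSO replicate 2 the ratio to DMSO was 39.0, from 80 against 1 count (95% counting interval from 6.80 to 1558), and without DMSO replicate 3 it was 12.9 (from 4.27 to 64.1). These exact intervals cover counting error only. HEY1 stayed far below HES6 per kilobase, at 0.63 ± 0.045 CPM against 8.69 ± 1.40 CPM with SCH772984 (SD, n = 3).

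**Figure D3:**
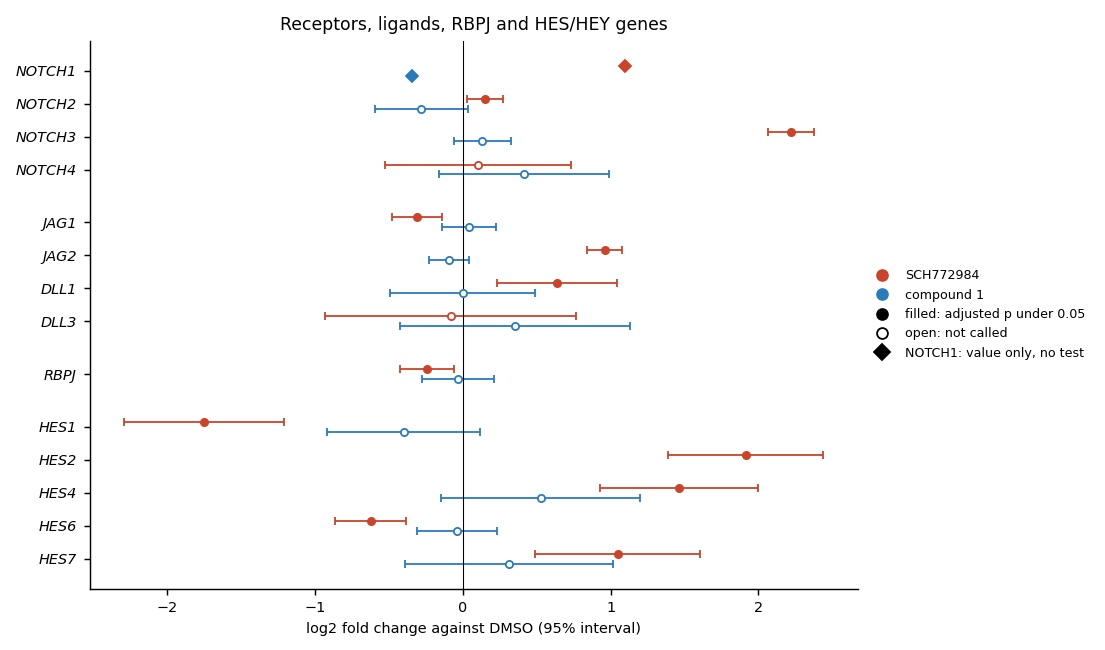
Log2 fold change against DMSO (horizontal axis) with its 95% interval for each receptor, ligand, RBPJ and HES/HEY gene that was tested, for SCH772984 (red) and compound 1 (blue). Filled circles passed an adjusted p of 0.05, open circles did not, and NOTCH1 (diamonds) is shown as a value only. HEY1, and HES2 with compound 1, are left out because they passed the filter through one condition only. With SCH772984, HES1 and HES6 lie below 0 and HES2, HES4 and HES7 above it, while no circle of compound 1 is filled.

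The rest of the HES/HEY list was also split. HES2 rose with SCH772984 from 2.36, 1.88 and 1.20 CPM to 8.48, 6.41 and 5.97 CPM (log2 1.91, SE 0.26, adjusted p = 1.14e-08). HES7, known from the somite clock, rose from 2.15, 2.32 and 1.64 CPM to 3.41, 4.22 and 5.03 CPM (log2 1.05, SE 0.28, adjusted p = 8.24e-04), although this call was lost with the length and GC trends removed (0.58, adjusted p = 0.0517). HES6, which is known to oppose HES1, fell from 27.1, 25.9 and 28.9 CPM to 16.5, 15.6 and 20.9 CPM (log2 -0.62, SE 0.12, adjusted p = 9.03e-06). Leaving HEY1 aside, 3 of the 5 tested HES/HEY genes rose and 2 fell, where 33.8% of all genes were higher and 38.2% lower, and the 5 that were not tested (HES3, HES5, HEY2, HEYL and HELT) had at most 3 counts in any library.

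The HES/HEY sum per kilobase overlapped between the conditions, at 19.8 ± 1.04 CPM in the DMSO libraries, 19.8 ± 3.97 in those of compound 1 and 19.6 ± 2.91 in those of SCH772984 (SD, n = 3). Its make-up differed. HES1 held 14.5 ± 3.04% with DMSO, 11.0 ± 2.66% with compound 1 and 4.61 ± 1.67% with SCH772984. HES4 held 10.2 ± 3.72%, 15.1 ± 1.61% and 28.8 ± 3.33% in the same order. HES6 remained the main gene of the list, with 67.7 ± 5.22%, 65.8 ± 1.23% and 44.4 ± 0.97%.

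The lists of Notch pathway genes, which include the members (receptors, ligands, nuclear complex, corepressors, cleavage, glycosylation, trafficking and ubiquitination, HES/HEY, other targets and genes that HES proteins repress), held 87 genes besides NOTCH1. With SCH772984, 69 were tested, of which HEY1 and GXYLT2 passed the filter only through the SCH772984 libraries. Of the other 67, 33 rose, 21 fell and 13 were not called, beside 33.8% of all genes higher and 38.2% lower by the same rule. Their median log2 fold change was 0.18, against -0.04 for those genes. Among the receptors besides NOTCH1, NOTCH3 rose, NOTCH4 was not called, and the call of NOTCH2 as higher reversed with the length and GC trends removed, as given above. Among the 4 ligands tested 2 rose and 1 fell. The other Notch targets were divided evenly, with 4 of 8 tested genes higher and 4 lower.

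NRARP, a target of Notch that feeds back on the receptor's intracellular part, fell with SCH772984 from 35.6, 29.8 and 28.0 CPM to 9.98, 9.71 and 7.52 CPM (log2 -1.80, SE 0.13, adjusted p = 2.51e-16). MYC, a growth regulator that Notch can activate and that ERK also acts on, fell from 314, 313 and 304 CPM to 105, 102 and 108 CPM (log2 -1.57, adjusted p = 1.08e-25). On the other side, SNAI2, a repressor of epithelial genes, rose from 4.31, 3.98 and 4.27 CPM to 18.8, 15.7 and 16.0 CPM (log2 2.00, adjusted p = 1.88e-14). CDKN1A, which encodes the cell cycle inhibitor p21, rose by a log2 fold change of 1.72 (adjusted p = 4.66e-07). NOTCH3, already described, belongs to this list too. NRARP, MYC, SNAI2 and CDKN1A were named for the size of their change, and MYC, SNAI2 and CDKN1A are known to respond to signals other than Notch as well.

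Of the 8 genes listed as repressed by HES proteins, only 2 were tested with SCH772984 and both rose, too few to be read against the 33.8% of all genes that were higher. CDKN1C, a cell cycle inhibitor, went from 1.85, 1.55 and 1.09 CPM to 5.74, 7.51 and 8.86 CPM (log2 2.29, SE 0.26, adjusted p = 1.99e-10), and CDKN1B, the second, is named here after its value was seen (log2 1.05, adjusted p = 4.03e-18). The neural and acinar factors of the list did not pass the filter on low counts.

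In the cleavage list (furin, ADAM proteases and γ-secretase subunits) 7 of 9 genes rose with SCH772984 and 1 fell, with a median log2 fold change of 0.51, beside the same 33.8% and 38.2% of all genes. APH1B, a γ-secretase subunit, changed most, from 5.02, 3.98 and 5.47 CPM with DMSO to 18.1, 19.5 and 19.8 CPM (log2 1.98, SE 0.16, adjusted p = 5.31e-15). In the trafficking and ubiquitination list 6 of 11 tested genes rose and 3 fell, among them DTX3L, a Deltex ubiquitin ligase, which rose from 17.5, 17.9 and 18.4 CPM to 51.5, 51.2 and 44.9 CPM (log2 1.45, adjusted p = 1.76e-17). In the glycosylation list, whose enzymes add sugars to the receptor, 3 of the 8 genes other than GXYLT2 rose and 4 fell. GXYLT2, a xylosyltransferase, had 7 to 11 counts with DMSO and 21 to 42 counts with SCH772984. Of 10 corepressor genes tested, 4 rose and 3 fell.

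**Figure D4:**
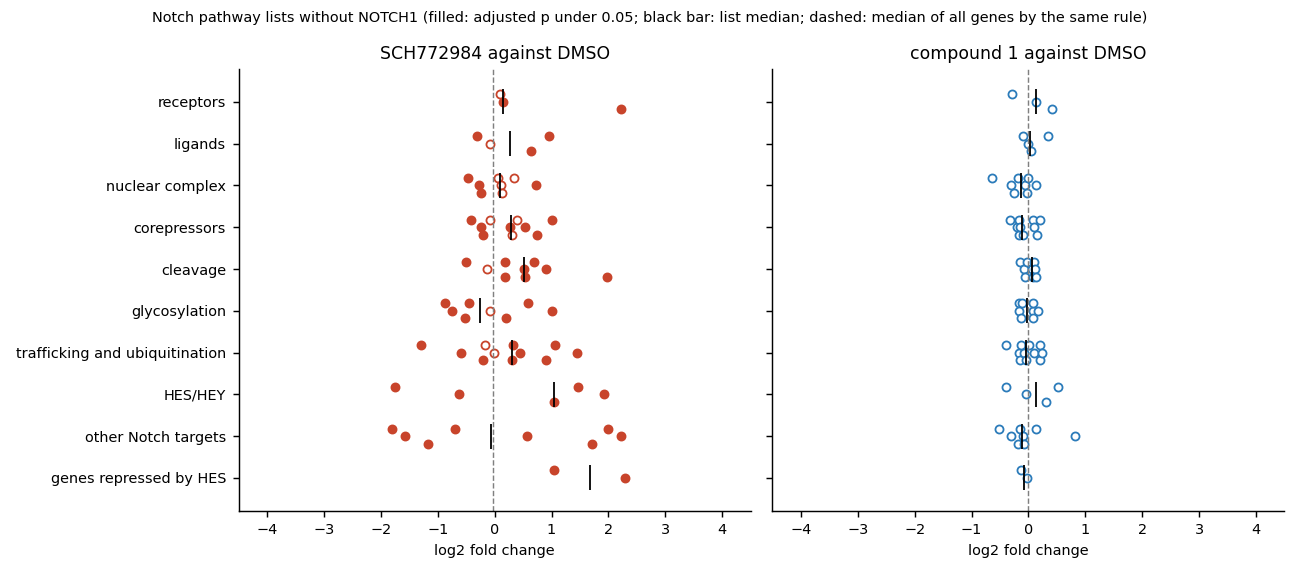
Log2 fold change against DMSO (horizontal axis) of each tested gene of the 10 pathway lists (rows), for SCH772984 (left) and compound 1 (right). NOTCH1 and genes that passed the filter through one condition only are left out. Filled points passed an adjusted p of 0.05, black bars are list medians and the dashed line is the median of all genes by the same rule. With SCH772984 most lists hold genes on both sides of 0, and with compound 1 no point is filled.

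The compound 1 libraries were compared with the same DMSO libraries. With compound 1, none of the 8 members tested besides NOTCH1 was called by edgeR, and none had an unadjusted p under 0.05 either. DESeq2 called none of the 7 to which it gave an adjusted p, and gave none for HES4. HEY1 was not tested because of its low counts. Over all 12849 genes tested, 0.49% were higher and 0.374% lower at an adjusted p under 0.05, and 7.35% were higher and 7.69% lower at an unadjusted p under 0.05. The median log2 fold change of the 8 members was -0.02, and that of all genes was 0.00.

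The intervals show which sizes of change remained possible. HES1 differed from DMSO by -0.40 on the log2 scale (95% interval from -0.92 to 0.12, adjusted p = 0.483), and its libraries overlapped with those of DMSO. HES4 differed by 0.53 (95% interval from -0.15 to 1.20, adjusted p = 0.473). NOTCH3 differed by 0.13 (95% interval from -0.06 to 0.33) and JAG2 by -0.09 (95% interval from -0.23 to 0.05). NOTCH2 differed by -0.28 (95% interval from -0.59 to 0.03, adjusted p = 0.385), with the lowest value in the replicate that stood apart, and passed the threshold only without the filter on low counts (-0.29, adjusted p = 0.0250). HES2 stood at 1.29, 1.15 and 0.62 CPM with compound 1, or 6 to 12 counts per library, and passed the filter only through the DMSO libraries, so no test is given for it. HES6, at 32.3, 22.6 and 24.8 CPM, and HES7, at 3.55, 2.51 and 1.56 CPM, were on both sides of their DMSO values.

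Among the 66 pathway genes tested with compound 1 besides NOTCH1 and HES2, edgeR called 0 and DESeq2 called 1. Over all genes edgeR called 0.49% higher and 0.374% lower, and DESeq2 0.911% and 0.926%. At an unadjusted p under 0.05 in edgeR there were 3 higher and 8 lower, where 7.35% and 7.69% of all genes were. MAML1, a Mastermind coactivator named after its values were seen, went from 130, 134 and 129 CPM to 102, 105 and 109 CPM (log2 -0.31, adjusted p = 0.0554), and it passed the threshold in DESeq2 (adjusted p = 0.0190), without the filter, with all 9 libraries in one fit, with the replicate block, with the length and GC trends removed and without compound 1 replicate 1 (adjusted p from 2.25e-03 to 0.0351 in these settings). NRARP stood at 26.1, 25.2 and 24.3 CPM with compound 1, below each DMSO library, with a log2 difference of -0.30 that did not pass the adjusted threshold (adjusted p = 0.204). Without compound 1 replicate 1, 4 pathway genes were called lower and none higher, where 6.1% of all genes tested were lower and 3.46% higher, so this count was near the share over all genes.

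The direct comparison of SCH772984 with compound 1 used no DMSO library. Of the 8 members other than NOTCH1 and HEY1, 5 were higher with SCH772984 (NOTCH2, NOTCH3, JAG2, DLL1 and HES4), 2 were lower (JAG1 and HES1) and RBPJ was not called. Over the 13863 genes tested, 33.7% were higher and 32.6% lower, or 31.0% and 34.5% without those that passed the filter through one condition only. NOTCH1 was 1.45 higher on the log2 scale (SE 0.082), given without a test. NOTCH3 differed by 2.09 (SE 0.092, adjusted p = 9.57e-14) and JAG2 by 1.06 (SE 0.078, adjusted p = 2.09e-10). HES1 differed by -1.34 (SE 0.30, adjusted p = 5.65e-04). HES2 was under the limit of the filter in a compound 1 library, so it passed only through the SCH772984 libraries, where it is high. Its value, higher by 2.75, is given without a test. HES6 differed by -0.58 (adjusted p = 1.68e-03) and HES7 by 0.74 (adjusted p = 0.0286), the latter without a call in DESeq2 (adjusted p = 0.0560), with the length and GC trends removed (0.30, adjusted p = 0.327), or when replicate 2 or 3 of either inhibitor was left out (adjusted p from 0.0547 to 0.186). HES4 differed by 0.94 (SE 0.25, adjusted p = 2.18e-03), but by 0.26 with the length and GC trends removed (adjusted p = 0.299). JAG1 differed by -0.34 (adjusted p = 4.17e-03), and by -0.20 with scaling by library size alone (adjusted p = 0.0669). With the length and GC trends removed, NOTCH2 (0.09, adjusted p = 0.300) and DLL1 (0.44, adjusted p = 0.0571) were not called either. DLL1 also lost its call without compound 1 replicate 2 (0.49, adjusted p = 0.0701). RBPJ differed by -0.20 (95% interval from -0.45 to 0.05, adjusted p = 0.155), and was called lower without compound 1 replicate 1 (-0.32, adjusted p = 7.25e-03) and with the length and GC trends removed (-0.25, adjusted p = 0.0163).

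The genes whose pair of log2 fold changes lay closest to that of NOTCH1, among 9946 protein-coding genes with an average of at least 5 CPM over the 9 libraries, were BAHCC1, AHNAK2, ARHGAP23, CDON and FAM171A2. Their Euclidean distances from NOTCH1 in these 2 values were 0.036 to 0.063. AHNAK2, for example, had log2 fold changes of 1.09 with SCH772984 and -0.40 with compound 1, beside 1.10 and -0.34 for NOTCH1. None of the 5 belongs to the pathway lists. Both comparisons share the DMSO libraries, so the 2 values of a gene are not independent.

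NOTCH1 itself lies on the minus strand of chromosome 9 (136494433 to 136545786, GRCh38). The long noncoding RNA NALT1 lies 426 bases from it on the opposite strand and had 2 to 3 counts per library with DMSO and 17 to 52 with SCH772984, a mean of 0.29 and 2.20 CPM. AL592301.1, which overlaps NOTCH1 on the opposite strand with no shared exon bases, was at 0.22 CPM with DMSO and 0.46 CPM with SCH772984. These levels are small beside the 279 and 601 CPM of NOTCH1. The other members with neighbors in the same or opposite orientation within 10 kb of the gene showed no shared exon bases, apart from JAG2 as given above and JAG1, for which 0.85% of exon bases are shared with AL050403.2, a gene with 0 counts. NUDT14, 4114 bases from JAG2 on the same strand, rose with SCH772984 (log2 1.31, adjusted p = 4.45e-12). SLX4IP near JAG1 (log2 0.34, adjusted p = 0.100) and C9orf163 near NOTCH1 (log2 -0.01, adjusted p = 0.969) were not called.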

How the data were processed

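RNA of MIA PaCa-2 cells was sequenced in 9 libraries, 3 per treatment. The authors deposited 1 table of raw read counts per gene, without normalization or a filter. The submitters' notes name HISAT2 2.0.5, featureCounts 1.5.0-p3 and hg38. The strand setting is not given in the sources used here, so reads of overlapping genes cannot be assigned to a strand. Identifiers and coordinates of all 58735 genes matched GENCODE 29 on GRCh38.

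The 3 pairs of conditions were fitted separately in edgeR 4.0.16 in R 4.3.3 (quasi-likelihood test, robust, TMM normalization, filterByExpr with minimum count 10 and minimum total count 15). A gene was taken to pass through one condition only where its mean in the other was below the filter's limit (0.937 to 1.03 CPM). Such genes were left out of the list counts and medians. HES2 in SCH772984 against compound 1 stayed in the counts by this rule, though a compound 1 library was below the limit. All genes passing the filter were tested, and p-values were adjusted by Benjamini-Hochberg over all of them (13834 genes for SCH772984 and 12849 for compound 1, against DMSO). The standard error is the log2 fold change divided by the root of the F statistic. Totals of 9464432 to 13887859 counts per library limit the precision of genes with few counts. CPM used TMM library sizes of all 9 libraries, and levels of different genes were compared per kilobase of deposited gene length. The GC content came from GENCODE 29 transcripts, for 58676 genes. The fit was checked on simulated counts.

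Alternatives were RLE factors, library size alone, no filter, at least 10 counts in every library, DESeq2 1.42.0, all 9 libraries in one fit, a replicate block, other thresholds, leaving out each library, shares of CPM in place of CPM per kilobase, and removing from each library a spline (5 degrees of freedom) in gene length and in GC content. Deviations of same-numbered libraries from their group means correlated between -0.089 and 0.130, so the numbers were not taken to pair libraries.

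The members, the pathway lists and the tests were chosen with earlier results of these data known. Named were the 10 members, all receptor, ligand and HES/HEY genes, pathway genes called with compound 1, the 12 called pathway genes with the largest change with SCH772984 at an average of at least 1 CPM, and the 5 genes most like NOTCH1. One gene of these lists is not reported here and is left out of their counts. Markers, and genes that neighbor, overlap or copy part of a member, were named in addition for that reason. Other genes named outside this rule are identified as such.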

Additional observations from a re-analysis of the deposited data

How the results depend on the processing

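The calls of NOTCH3, JAG2, HES1 and HES4 with SCH772984 against DMSO kept their direction and their side of the adjusted threshold under every alternative run for them, apart from JAG2 when a 2-fold change was also required. NOTCH2 turned to -0.17 with the length and GC trends removed. Removing these trends also moved the all-gene median of the log2 fold change with SCH772984 from 0.03 to -0.10, and scaling by library size alone moved it to 0.20. The cause was not tested.

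Among the 8 members other than NOTCH1 and HEY1, with SCH772984 against DMSO, scaling by library size alone left 1 called lower in place of 3 (28.3% of all genes in place of 35.5%). Removing the length and GC trends left 3 higher in place of 5 (32.1% of all genes in place of 37.2%). Requiring at least 2-fold left 2 higher and 1 lower (18.2% and 10.6% of all genes). Over the pathway genes, without those that passed the filter through one condition only, the 2-fold requirement left 13 higher and 5 lower in place of 33 and 21, where it left 18.2% and 10.6% of all genes tested. The shares in this paragraph are over all genes tested and keep those that passed through one condition, whereas the pathway counts leave them out. With compound 1, the absence of a filter gave 1 member called lower and 3 pathway genes called lower, where 0.881% of 25883 genes were lower. Pathway genes called lower with compound 1 numbered 0 in the fit as designed (0.374% of all genes), 1 in DESeq2 (0.926%) and 1 with all 9 libraries in one fit (0.696%). The replicate block gave 2 lower (1.7%). With the length and GC trends removed, 3 were lower (2.9%) and 1 was higher (1.81%). At an unadjusted p under 0.05 in edgeR, 8 were lower (7.69%) and 3 higher (7.35%). In SCH772984 against compound 1, scaling by library size alone left 1 member called lower in place of 2 (26.9% of all genes in place of 32.6%). Removing the length and GC trends left 2 members higher in place of 5 (30.5% of all genes in place of 33.7%). It made 24 pathway genes lower in place of 16 (over all genes 39.9% in place of 32.6%). The 2-fold requirement left 2 members higher and 1 lower and 10 pathway genes higher and 5 lower (16.5% and 10.1% of all genes).

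Leaving out 1 library at a time moved the pathway genes called lower with compound 1 between 0 and 4, the highest without compound 1 replicate 1. The number of calls over all genes with compound 1 went from 63 higher and 48 lower to 453 and 798 without that library, and to at most 27 and 24 without any one of the other 5 libraries of this comparison. The replicate block gave 193 higher and 219 lower there, and changed no call among the members in any of the 3 comparisons. A pair of libraries left in a group was assumed to vary like the other group. HEY1, at 1 or 2 counts per compound 1 library, was too low to be tested against DMSO at this depth.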
